A study of Mus musculus with 18 samples.

Results

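Immune cells of the small bowel lamina propria were compared between St8sia6 heterozygous (het) and wild-type (WT) mice. A deposited cell was kept when it held at least 1 molecule (UMI) of Ptprc, the gene of the leukocyte surface protein CD45, none of the epithelial gene Epcam, under 20% mitochondrial counts and at least 1000 UMI. This left 2052 het and 2248 WT cells, 4300 of the 60272 cells of the whole series. The first condition alone kept 11341 of 21600 lamina propria cells, and absence of Epcam then kept 7954. The remaining 3178 cells that met the rule came from knockout (KO) mice. Their sums entered the fits and shared in the estimate of the spread, the library terms, the scaling and the filter on low counts.

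Per the labels, every run used 1 KO, 1 het and 2 WT mice and was carried out 3 independent times. Cells were taken from the Percoll interface, selected with CD45 beads, tagged with 1 antibody hashtag per genotype (C0301 for KO, C0302 for het, C0303 for WT) and pooled by organ before capture with 5' droplet chemistry. A het value therefore comes from 1 mouse and a WT value from a pool of 2 mice in each library. Age, strain and the deleted part of St8sia6 are not given in the sources used here, and KO, het and WT cells of a library shared one capture. Counts of 1 genotype, 1 library and 1 cell class were added up, and such a sum is the replicate (n = 3 per genotype). P-values measure the spread between these sums.

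ST8SIA6 is a sialyltransferase of the Golgi that adds sialic acid onto sialic acid already present on glycans, and such glycans are ligands of inhibitory Siglec receptors on leukocytes. The lamina propria, the connective tissue under the gut epithelium, holds plasma cells that secrete IgA, CD4 and CD8 T cells, macrophages, B cells and innate lymphoid cells. CD3 epsilon (Cd3e) belongs to the T cell receptor complex, and Mzb1 is a chaperone of the endoplasmic reticulum abundant in plasma cells. Cells with Cd3e and no Mzb1 were called T cells, cells with Mzb1 and no Cd3e plasma cells, cells with neither other immune cells, and cells with both were kept apart.

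The 3 het sums held 407 T cells, 783 plasma cells, 631 other cells and 231 cells with both genes. The WT sums held 186, 1154, 774 and 134. Summed counts ranged from 134147 to 622441 UMI in T cells, from 2344682 to 4220315 in plasma cells and from 352647 to 969724 in other cells. T and plasma cell markers followed the class names. The T cell lineage list (13 genes) measured 3012 to 3602 CPM (counts scaled to a common total per sum) in T cell sums and 198 to 278 in plasma cell sums, and the plasma cell lineage list measured 272058 to 338205 CPM in plasma cell sums. Plasma cell RNA was also present in the T cell sums at 9818 to 18010 CPM, and every cell of the other class held an Igha UMI, so a low level of immunoglobulin RNA is shared by all classes. B cell genes did not separate plasma from other cells. The B cell lineage list measured 1266 to 1864 CPM in plasma and 837 to 2799 in other cell sums. The part of B cells in the class called plasma cells was not tested. Cells with both genes had a median of 9522 UMI in het and 11659 in WT, against 2549 and 2765 for T cells, and no doublet caller was run. No barcode was shared within a library, and 190 were shared over the 27 pairs of barcode endings from different libraries.

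The WT sum of library 3 stood apart. Its median WT hashtag count was 198 beside a het hashtag median of 156, and the WT hashtag led in 90.8% of its cells, against at least 99.3% for the own hashtag of every other het or WT sum. Of its deposited cells 18.9% met the rule, against 29.2% to 38.6% in the others. Gm10260, listed by RefSeq as a pseudogene, had 1025 and 1702 UMI over the T, plasma and other classes in WT libraries 1 and 2, 4 in WT library 3, and 7, 10 and 4 in the het libraries. The KO libraries had 7, 15 and 6. For this transcript WT library 3 lay with the het and KO sums, and WT libraries 1 and 2 lay apart from all of these. The cause was not tested. The genotype of this sum rests on its hashtag label, which no other value in the files used here could check, and every WT mean of 3 sums includes it. Ratios without this sum are given below for many of the genes named.

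St8sia6 (chromosome 2, 13651018 to 13794734, RefSeq positions on GRCm38.p6) was read first. In plasma cells it measured 55.0, 62.2 and 65.7 CPM in het libraries 1 to 3 and 58.3, 74.5 and 72.0 in WT libraries 1 to 3. KO plasma cells had 32.0, 48.7 and 48.5. The het and WT ranges overlapped, although the het value was lower than the WT value of its own library in every library. The log2 ratio of het to WT was -0.21 (SE 0.11, adjusted p 0.847 in edgeR), and -0.19 without WT library 3. KO sums still held 520 St8sia6 UMI in plasma cells, so the label of a sum could not be read from this transcript alone. At least 1 UMI was present in 31.7 ± 1.01% of het and 34.2 ± 1.01% of WT plasma cells (SD, n = 3), and in 6.64% and 6.55% after each cell was thinned to 1000 UMI. Other cells held 47 het and 112 WT UMI, of which 40 came from WT library 3 (log2 -1.04, SE 0.54, adjusted p 0.69 in edgeR; -0.31 without that sum). T cells held 12 het and 10 WT UMI.

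**Figure D1:**
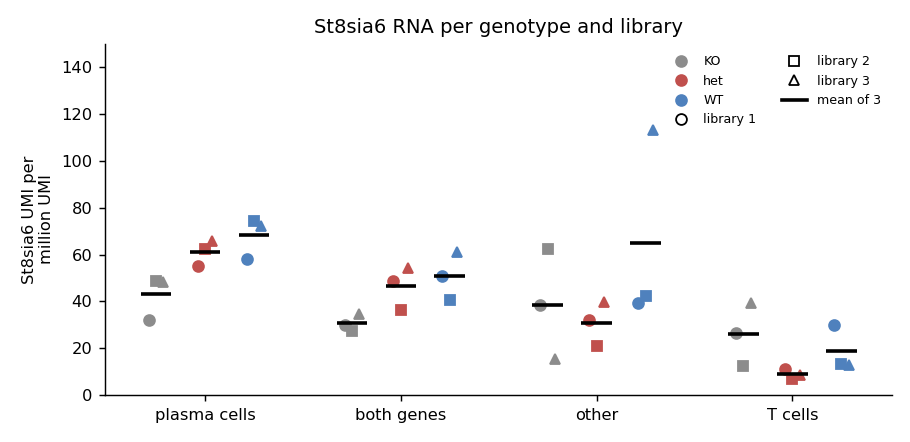
St8sia6 CPM (UMI scaled to a common total, vertical axis) in each KO, het and WT sum of 4 cell classes; symbols are libraries and black lines the mean of 3. In plasma cells the het points (55.0 to 65.7) overlap the WT points (58.3 to 74.5), and WT library 3 is high among other cells at 113.

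T cells made up a larger share of the het cells. The share was 24.7%, 18.5% and 15.0% in het libraries 1 to 3 and 5.44%, 10.3% and 9.64% in WT, so the groups did not overlap. The means were 19.4 ± 4.95% and 8.48 ± 2.65% (SD, n = 3). A two-sided exact permutation test that did not pair the libraries gave p 0.1, the smallest that 3 against 3 allows. In the edgeR test of cell numbers, which pairs het and WT within a library, the log2 ratio was 1.24 (SE 0.30, adjusted p 0.00685 over 4 classes). It was 1.34 without WT library 3 (adjusted p 0.0225). Among cells whose hashtag share was at least 80% it was 0.80 and no longer passed (adjusted p 0.0823). That filter kept 96.0% to 100% of the cells in het libraries, but 58.7%, 85.8% and 42.6% in WT libraries 1 to 3. In WT library 1 it kept 38 of 48 T cells and 266 of 460 plasma cells, so the filter itself changes class shares. Thinning each cell to 1000 UMI gave 17.4%, 12.4% and 10.8% in het and 3.74%, 7.09% and 5.03% in WT (log2 1.36, SE 0.32, adjusted p 0.02 in edgeR). With thinned cells the ratio did not pass without library 1 (0.89, adjusted p 0.0995) or without library 2 (1.74, adjusted p 0.0633).

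Cells with both Cd3e and Mzb1 were also a larger share of het cells, at 12.2%, 10.4% and 11.0% against 6.12%, 5.85% and 5.87% in WT (log2 0.92, SE 0.11, adjusted p 0.000424 in edgeR). Among cells with a hashtag share of at least 80% the ratio was 0.46 and did not pass (adjusted p 0.13). After thinning they were 1.98 ± 0.38% and 1.05 ± 0.40% (SD, n = 3; log2 0.95, adjusted p 0.02 in edgeR). Thinned, the ratio did not pass without library 1 (0.80, adjusted p 0.143), without library 2 (1.01, adjusted p 0.0633) or with the 80% hashtag share (0.70, adjusted p 0.157). Plasma cells were a smaller share, 33.5%, 37.1% and 45.6% in het against 52.2%, 47.5% and 57.02% in WT (log2 -0.44, SE 0.10, adjusted p 0.00685 in edgeR), which did not pass with that hashtag share (-0.37, adjusted p 0.13). With thinned cells the plasma shares overlapped, at 28.0%, 28.5% and 36.8% in het and 36.6%, 31.3% and 38.4% in WT, and the test did not pass (log2 -0.19, adjusted p 0.138). Other cells made up 30.7 ± 2.99% of het and 33.4 ± 5.11% of WT cells (adjusted p 0.242 in edgeR). Shares add to 100%, so a larger T cell share lowers the others, and neither share measures the number of cells in the tissue.

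**Figure D2:**
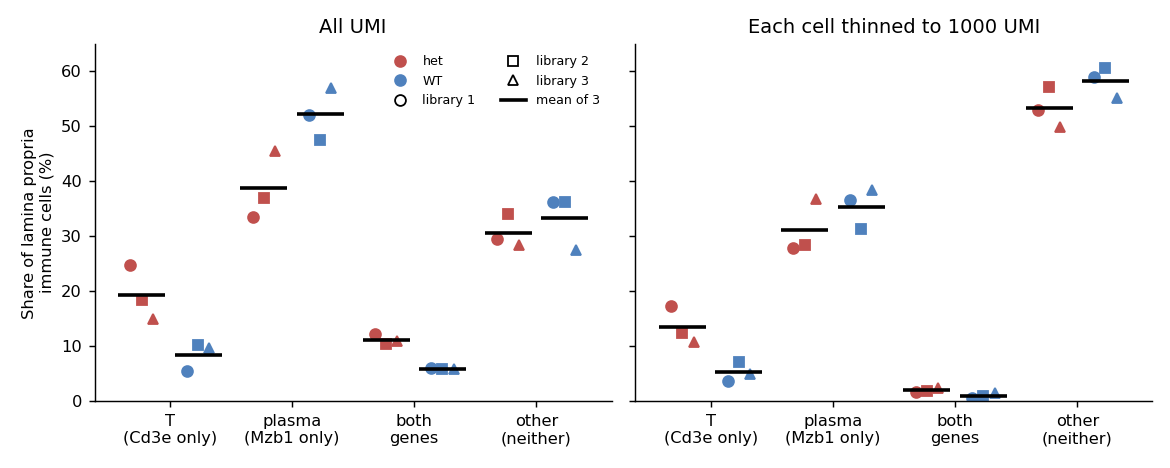
Share of lamina propria immune cells (percent, vertical axis) in each class for het and WT sums, from all UMI (left) and from cells thinned to 1000 UMI (right); symbols are libraries and black lines the mean of 3. Het T cell shares (15.0% to 24.7%) lie above all WT shares (5.44% to 10.3%) on the left, and plasma shares overlap on the right.

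Over all T cells, lists of cytotoxic and chemokine genes had positive median ratios of het to WT. Lists of regulatory and naive T cell genes had negative ones, and few single genes passed. Of 6278 genes tested 5 were called (0.0796%), 4 higher (0.0637%) and 1 lower (0.0159%) in het, and 546 had an unadjusted p under 0.05 (8.7%). Every het sum lay above every WT sum for 402 genes (6.4%) and below for 375 (5.97%). In simulated sums of this size, 100 genes were planted at a log2 change of 1 and 100 at a change of 2. The test recovered 29% and 80% of them. With so many changed genes the adjusted cutoff is looser than with few, so these shares do not give the recovery where few genes change. The count of 5 moved with single libraries: it was 1 without library 1 and 3 without library 2, with 0 and 1 of the 5 genes among them, and 8 without library 3, with 3 of the 5. Without WT library 3 it was 4, with 2 of the 5 (Hspb1 and Anxa2). It was 0 among cells with a hashtag share of at least 80%, and 0 without the library block.

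The called genes that were higher were Hspb1, a small heat shock protein, Anxa2, a membrane-binding annexin, Cebpd, a transcription factor, and Igfbp7, a secreted protein of vessels. Hspb1 had 33, 44 and 2 UMI in het libraries 1 to 3 and none in WT, at least 12.1-fold higher in het when WT is set to 3 counts over the group (adjusted p 0.0364 in edgeR), and at least 4.00-fold without library 2. Cebpd had 68, 40 and 9 UMI in het and 0, 4 and 0 in WT (adjusted p 0.0483). Igfbp7 measured 105, 146 and 53.7 CPM in het and 8.01, 42.0 and 6.96 in WT (log2 2.38, SE 0.43, adjusted p 0.0483 in edgeR). These 3 transcripts lay in few cells: 13 het cells held all Hspb1 and 13 all Igfbp7 UMI, and 12 held all Cebpd UMI.

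The cells concerned carried RNA of vessel and connective tissue cells. Of the 79 het UMI of Hspb1, 76 lay in the 15 het T cells with a UMI of the stromal and endothelial list (Pecam1, which plasma cells carry, not counted), as did 113 of 117 for Cebpd and 135 of 137 for Igfbp7. The 15 cells were 3.69% of het T cells and held 10.5% of their UMI, and 4 of 186 WT T cells (2.15%) held such a UMI. The list measured 195 to 1551 CPM in het T cell sums and 96.9 to 173 in WT, and 10, 8 and 10 of its 11 genes without Pecam1 were at 0 in WT libraries 1 to 3. Dcn, a fibroblast gene, had 103 UMI in het library 2 and 0 in every other het and WT T cell sum, and Acta2, of smooth muscle, had 213 there and at most 2 elsewhere. Plvap, of endothelium, had 62, 52 and 15 UMI in het and 0, 16 and 0 in WT. Without those cells 1 Hspb1 UMI remained in each het sum, and Hspb1, Cebpd and Igfbp7 were too low to be tested. What these cells are was not tested.

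Anxa2 was spread more widely, over 73 het and 16 WT T cells. It measured 105, 131 and 108 CPM in het and 24.04, 24.5 and 41.8 in WT, with no overlap (log2 1.98, SE 0.34, adjusted p 0.0466 in edgeR). Without cells that held a stromal UMI its log2 ratio was 1.78 and did not pass (adjusted p 0.171), nor did it pass with DESeq2 (adjusted p 0.141). Gm42418, a locus that overlaps ribosomal RNA and takes up rRNA reads, was the called gene that was lower. It measured 56930, 73650 and 62810 CPM in het and 79450, 90000 and 81260 in WT (log2 -0.38, SE 0.06, adjusted p 0.0405 in edgeR), and -0.34 without the cells that held a stromal UMI (adjusted p 0.0299). It did not pass without WT library 3 (log2 -0.41, adjusted p 0.163) or with DESeq2 (adjusted p 0.254).

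Ccl5 (chromosome 11, 83525778 to 83530518), a chemokine of memory and cytotoxic T cells, measured 9241, 9347 and 8149 CPM in het T cells and 5755, 5784 and 5143 in WT. No het sum overlapped a WT sum, and the mean was 8913 ± 663 against 5561 ± 362 (SD, n = 3; log2 0.68, SE 0.13, adjusted p 0.082 in edgeR). It passed with DESeq2 (log2 0.69, adjusted p 0.0423) and in cells without a stromal UMI (log2 0.91, adjusted p 0.0173), and it did not pass without WT library 3 (log2 0.61, adjusted p 0.287). In cells without a stromal UMI, WT library 3 fell from 739 to 539 Ccl5 UMI because 1 cell with 200 was left out. Gzma, a granule protease of cytotoxic lymphocytes, measured 5803, 4652 and 5655 CPM in het and 1884, 3491 and 3424 in WT (log2 0.85, SE 0.21, adjusted p 0.217 in edgeR). All het values lay above all WT values. Gzma passed in cells without a stromal UMI (log2 1.33, adjusted p 0.0173), where WT library 3 fell from 492 to 224 UMI because 1 cell with 268 Gzma UMI and 1 stromal UMI was left out. A single cell also held 588 of 1263 Gzma UMI in het library 3 and 117 of 235 in WT library 1.

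Other effector genes had higher values in het without passing. The chemokine Ccl4 measured 825, 1077 and 1048 CPM in het and 433, 774 and 258 in WT (log2 0.99, SE 0.24, adjusted p 0.195 in edgeR). Gzmk and Klrd1, a granzyme and a natural killer receptor chain, had log2 ratios of 1.19 and 0.63. For both, every het sum lay above every WT sum. Of 14 tested cytotoxic granule genes 11 had a positive log2 ratio, 4 lay above all WT sums (6.4% of all genes did) and the median was 0.36, against -0.00 over all genes tested. Of 6 tested lymphocyte chemokines 5 were positive (median 0.84), and Xcl1 was the exception at 128, 146 and 103 CPM in het and 272, 98.03 and 285 in WT (log2 -0.61). No gene of these lists was called.

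**Figure D3:**
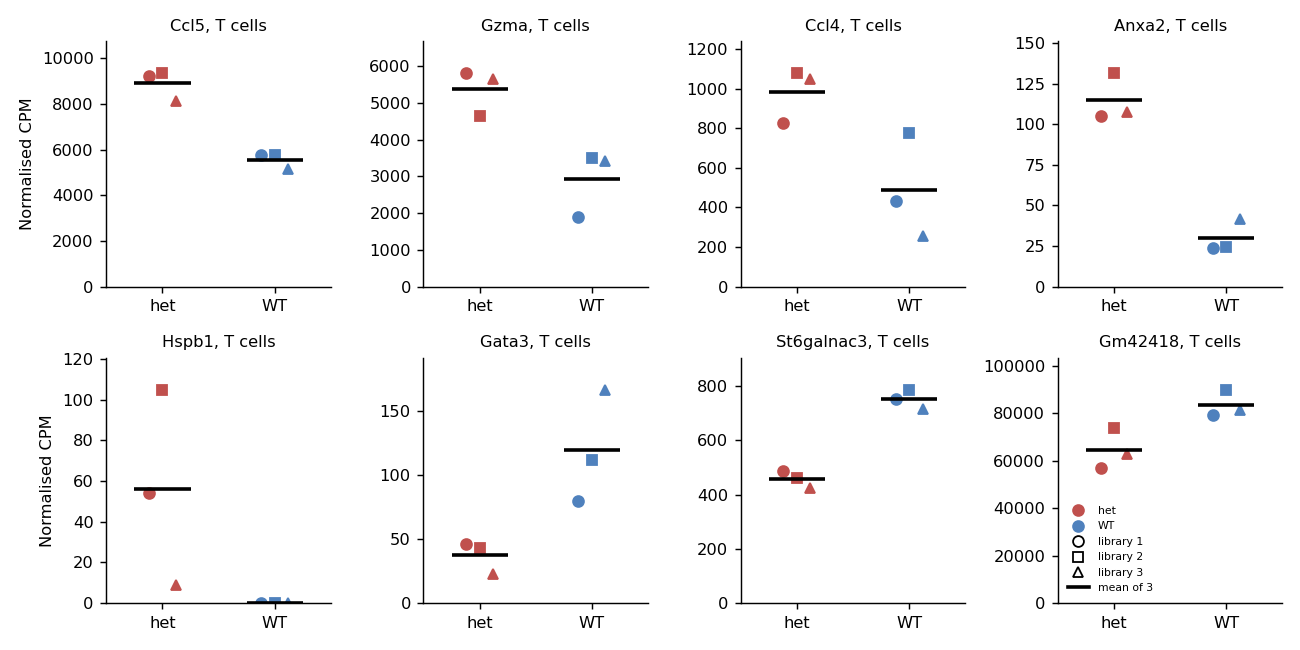
Normalised CPM (vertical axis, from 0) of 8 genes in the T cell sums of het and WT; symbols are libraries and black lines the mean of 3. Ccl5, Gzma, Ccl4 and Anxa2 lie higher in every het sum than in any WT sum, Gata3, St6galnac3 and Gm42418 lower, and Hspb1 is 0 in all WT sums.

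Genes of regulatory T cells had mostly negative ratios. Of 15 tested members 13 had a negative log2 ratio (median -0.31), 6 of them at an unadjusted p under 0.05 beside 4.41% of all genes tested, and none was called. Gata3, a transcription factor of type 2 and gut regulatory T cells, measured 46.0, 43.0 and 22.4 CPM in het and 80.2, 112 and 167 in WT, with no overlap (log2 -1.54, SE 0.32, adjusted p 0.0941 in edgeR; -1.29 and 0.287 without WT library 3). Foxp3, which defines regulatory T cells, had 5, 7 and 2 UMI in het and 1, 8 and 9 in WT, each in 9 cells in all (log2 -1.48, adjusted p 0.529 in edgeR). Its log2 ratio was -0.68 without WT library 3. The cytokine Il10 had a log2 ratio of -1.01 (adjusted p 0.551 in edgeR), the costimulatory receptor Tnfrsf4 one of -1.15 and the transcription factor Ikzf2 one of -0.53. Without WT library 3 those of Il10 and Ikzf2 were -0.66 and -0.19.

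Naive and recirculating T cell genes had a median log2 ratio of -0.43, and 10 of 13 were negative. Lef1, a transcription factor of naive T cells, measured 47.7, 100 and 112 CPM in het and 489, 116 and 118 in WT (log2 -1.42, adjusted p 0.413 in edgeR), a difference carried mostly by WT library 1. The IL-7 receptor gene Il7r, Bach2 and Satb1 lay below all WT sums in every het sum, with log2 ratios of -0.52, -0.57 and -0.43. Igfbp4 was the member with the smallest p and was positive (log2 1.69), but 88 of its 111 het UMI lay in cells with a stromal UMI, and it was -0.40 without them. Ltb, the lymphotoxin beta gene, had a log2 ratio of -0.49 (adjusted p 0.551 in edgeR).

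Single genes of the Th1 and Th17 programs named in the title of the series showed no common direction in T cells. Of 18 tested Th1 genes 10 were positive (median 0.02), and of 15 Th17 genes 7 were (median -0.04). Of the Th1 genes 4 lay above and 1 below all WT sums, beside 6.4% and 5.97% of all genes tested. The summed Th1 list measured 12637 to 13948 CPM in het and 8810 to 10237 in WT, without overlap, and the Th17 list overlapped. By coreceptor, 6 of 12 tested Th1 genes were positive in Cd8a T cells (median 0.06) and 2 of 12 in Cd4 T cells (median -0.59). Ifng measured 82.2, 88.3 and 76.1 CPM in het and 40.1, 102 and 55.7 in WT (log2 0.36, SE 0.34, adjusted p 0.876 in edgeR), and its regulator Tbx21 123, 134 and 121 against 112, 116 and 48.7 (log2 0.36, adjusted p 0.848 in edgeR; 0.13 without WT library 3). Il17a had 351, 98 and 50 UMI in het and 23, 143 and 128 in WT from 32 and 15 cells. A single cell held 103 of the 143 UMI in WT library 2, and the groups overlapped (log2 -0.60, SE 0.48, adjusted p 0.836 in edgeR; 0.27 without WT library 3). Il22 had a log2 ratio of -0.85 and Il17f, with 14 het and 4 WT UMI, one of 0.66, both overlapping between the groups (-0.25 and 0.37 without WT library 3).

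Gzmb had a log2 ratio of 0.49 (SE 0.22, adjusted p 0.56 in edgeR), and Ide, which encodes an insulin-degrading protease, one of 0.58 (adjusted p 0.584 in edgeR). The heat shock genes Hspa1a and Hspa1b had log2 ratios of -1.39 and -1.59 (adjusted p 0.552 and 0.373 in edgeR), and Hspa1a was at -2.09 without WT library 3. Hspa1b measured 36.2, 11.9 and 184 CPM in het and 72.1, 158 and 278 in WT, so het library 3 lay within the WT range. Among 9 tested sialyltransferases 7 were negative (median -0.25). The clearest was St6galnac3, which adds sialic acid to O-glycans and gangliosides, with 488, 461 and 425 CPM in het and 753, 788 and 717 in WT (log2 -0.70, SE 0.15, adjusted p 0.0941 in edgeR; -0.74 and 0.203 without WT library 3). Its UMI were spread over 219 het and 117 WT cells.

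T cells were also split by coreceptor. Cells with Cd8a and no Cd4 were 37.7%, 32.6% and 39.1% of het and 20.8%, 29.3% and 30.4% of WT T cells, without overlap (two-sided exact permutation p 0.1, adjusted 0.7 over all gates). After thinning the shares overlapped (24.2 ± 4.29% and 18.0 ± 6.89%, SD, n = 3). Cells with Gzma were 53.4%, 47.3% and 41.4% of het and 31.3%, 41.3% and 34.8% of WT T cells, again with exact permutation p 0.1. Cd4 cells without Cd8a were 14.1%, 15.5% and 13.8% of het and 6.25%, 29.3% and 26.1% of WT T cells. No gate passed after adjustment in T, plasma or other cells, and 3 against 3 cannot go below 0.1.

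T cells of 1 coreceptor were also tested apart. In Cd8a T cells Ccl5 measured 21630, 21530 and 16850 CPM in het and 16290, 18940 and 16280 in WT (log2 0.22, SE 0.14, adjusted p 0.894 in edgeR), and Gzma had a log2 ratio of 0.22 (adjusted p 0.941 in edgeR; 0.57 without WT library 3). Both overlapped between groups. Xcl1 had the smallest p of the fixed genes there, at 169, 287 and 190 CPM in het and 602, 244 and 970 in WT (log2 -1.31, SE 0.40, adjusted p 0.612 in edgeR). Neither edgeR nor DESeq2 called any gene in Cd8a T cells (0 of 2018, 0%). The unadjusted p was under 0.05 for 104 genes (5.15%). The median log2 ratio of the cytotoxic granule list was 0.08 in Cd8a T cells (7 of 11 tested genes positive) and -0.55 in Cd4 T cells (2 of 8). For lymphocyte chemokines it was 0.22 (4 of 5) and 2.27 (3 of 4).

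In Cd4 T cells 0 of 2686 genes (0%) were called by edgeR or DESeq2, and 160 had an unadjusted p under 0.05 (5.96%). WT library 1 had 3 such cells and was left out, so 2 WT sums remained. Gzmb measured 624, 141 and 78.6 CPM in het and 979 and 859 in WT (log2 -2.20, SE 0.49, adjusted p 0.392 in edgeR), the opposite sign to all T cells. Gzmb passed in cells without a stromal UMI (log2 -2.14, adjusted p 0.033), with het and WT sums only (-2.98, adjusted p 0.0435) and without library 1 (-2.96, adjusted p 0.0216). It also passed with no filter on low counts. It did not pass with DESeq2, without the library block, with immunoglobulin genes left out or in cells with at least 2000 UMI. Ccl5 also had the opposite sign to all T cells, at 1169, 487 and 367 CPM in het and 901 and 1104 in WT, overlapping between groups (log2 -0.81, adjusted p 0.876 in edgeR). Gata3 measured 89.1, 38.4 and 78.6 CPM in het and 156 and 417 in WT (log2 -2.45, SE 0.52, adjusted p 0.392 in edgeR). Foxp3 had a log2 ratio of -2.15 (adjusted p 0.783 in edgeR). Without WT library 3 the Foxp3 ratio was -1.43, from a fit with only 1 WT sum. Igfbp4 was at 3.68 (adjusted p 0.392 in edgeR), with 43 of its 49 het UMI in cells with a stromal UMI. Of the 15 genes fixed for T cells and reported here, 12 could be tested in Cd4 and 7 in Cd8a T cells, and none passed in the main edgeR fits.

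Plasma cells showed no called gene among 10077 tested by edgeR (0%), where 617 had an unadjusted p under 0.05 (6.12%) and DESeq2 called 33. Simulated sums of this size, with 100 genes planted at each change, gave back 45% of log2 changes of 1 and 81% of changes of 2. These shares too do not give the recovery where few genes change. Every het sum lay above every WT sum for 457 genes (4.54%) and below for 459 (4.55%). Igha, the IgA heavy chain, measured 168000, 166500 and 169100 CPM in het and 178900, 142000 and 228000 in WT (log2 -0.10, SE 0.16, adjusted p 0.962 in edgeR; 0.03 without WT library 3). Igha was the heavy chain gene with most UMI in 97.96 ± 0.56% of het and 98.5 ± 1.43% of WT plasma cells (SD, n = 3; exact permutation p 0.8), and Ighm, the IgM heavy chain, in 1.53% and 0.93%. The 631 het and 774 WT other cells also held 25629 and 45077 Igha UMI. With Igha RNA in every cell, this share cannot by itself give the heavy chain that a cell makes.

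The kappa light chain Igkc, the joining chain Jchain, Xbp1, which drives the secretory program, the chaperone Hspa5 and the survival receptor Tnfrsf17 had log2 ratios of -0.23, -0.13, -0.32, 0.20 and -0.06, and none passed (adjusted p 0.848 to 0.983 in edgeR). For these 5 genes and for Igha and Ighm the het and WT values overlapped. Without WT library 3 the ratios of Igkc, Jchain and Tnfrsf17 were -0.11, -0.03 and 0.07. Ighm RNA measured 125, 189 and 289 CPM in het and 110, 153 and 116 in WT (log2 0.63, SE 0.44, adjusted p 0.88 in edgeR; 0.40 without WT library 3). Of 12 tested plasma cell lineage genes 11 were negative with a median of -0.16, and of 46 secretory pathway genes 32 were positive with a median of 0.07, against 0.01 over all genes tested.

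The following plasma cell genes were chosen after their values were seen. Bcl2, which protects cells from apoptosis, measured 110, 121 and 95.5 CPM in het and 70.4, 66.6 and 68.8 in WT, with no overlap (log2 0.66, SE 0.11, adjusted p 0.346 in edgeR; DESeq2 adjusted p 0.0498). Nlrc5, the activator of MHC class I genes, measured 22.4, 19.8 and 18.2 CPM in het and 10.9, 12.0 and 10.9 in WT (log2 0.85, SE 0.15, adjusted p 0.346 in edgeR). Tap1 and Psmb8, a peptide transporter subunit and an immunoproteasome subunit, had log2 ratios of 0.32 and 0.39, and each het value again lay above all WT values. Of 18 tested MHC class I genes 14 were positive and 6 lay above all WT sums, beside the 4.54% of all genes. The gut homing receptor Ccr9 measured 57.5, 50.8 and 76.1 CPM in het and 84.0, 71.8 and 99.1 in WT (log2 -0.47, adjusted p 0.732 in edgeR), lower in each library and overlapping between groups.

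Vessel genes were also among the smallest p in plasma cells. Madcam1, an addressin of gut endothelium, had 86, 15 and 2 UMI in het and none in WT, at least 49.3-fold higher against 3 counts over the WT group (adjusted p 0.316 in edgeR). Library 1 set most of this limit, which was 7.16-fold without it. All 103 UMI lay in 5 het cells with a UMI of the stromal and endothelial list. Socs3, a feedback inhibitor of cytokine signalling, measured 37.6, 29.0 and 10.2 CPM in het and 11.9, 8.1 and 7.1 in WT, overlapping between groups (log2 1.49, SE 0.23, adjusted p 0.331 in edgeR), and 119 of its 182 het UMI lay in such cells. The list itself measured 56.3 to 187 CPM in het and 50.5 to 125 in WT plasma cell sums.

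Immunoglobulin variable segments varied widely between single sums in plasma cells. Of 190 tested segments 0 were called and 23 had an unadjusted p under 0.05, with 7 above and 7 below all WT sums. Over all genes tested in plasma cells 6.12% had such a p, 4.54% lay above and 4.55% below all WT sums. Igkv6-13 measured 13600, 3683 and 958 CPM in het and 2227, 486 and 40.3 in WT, higher in het in each library but overlapping between groups (log2 3.10, SE 0.69, adjusted p 0.544 in edgeR). Ighv1-12 measured 946, 492 and 1690 CPM in het and 126, 21.6 and 7.59 in WT (log2 4.71, SE 1.06, adjusted p 0.544 in edgeR). Igkv4-79 had the opposite pattern, with 0.42, 1.26 and 0 CPM in het and 141, 151 and 604 in WT. The most frequent heavy chain segment was a different one in each of the 6 sums and took 4.65% to 10.5% of their heavy chain segment UMI. Segments of one gene family share sequence, so reads could be split between them in the authors' counting.

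Other immune cells, a mixture of B cells, macrophages, innate lymphoid cells and others without Cd3e and Mzb1, had 0 of 8369 genes called by edgeR (0%), 646 at an unadjusted p under 0.05 (7.72%), and 13 called by DESeq2. Het sums lay above all WT sums for 468 genes (5.59%) and below for 507 (6.06%). Ms4a1, the B cell gene of CD20, measured 44.1, 112 and 110 CPM in het and 108, 77.7 and 54.4 in WT (log2 0.08, adjusted p 0.993 in edgeR; -0.11 without WT library 3). Macrophage genes were low in WT library 3: C1qa measured 189, 173 and 399 CPM in het and 191, 161 and 48.0 in WT (log2 0.72, SE 0.38, adjusted p 0.694 in edgeR; 0.17 without that sum), and Lyz2 had a log2 ratio of 0.34 that was -0.18 without that sum. The MHC class II genes H2-Aa and Cd74 had log2 ratios of -0.14 and 0.06 (-0.46 and -0.18 without it). Il22, a cytokine of group 3 innate lymphoid cells, was at 0.44 (adjusted p 0.909 in edgeR; 1.60 without it).

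Natural killer and cytotoxic genes had higher values in het other cells. All 7 tested NK and ILC1 genes were positive (median 0.67), 13 of 14 cytotoxic granule genes were (median 0.65) and all 19 tested Th1 genes were (median 0.30), beside 49.5% of all genes tested, and none was called. The T cell lineage list measured 832 to 967 CPM in het and 690 to 848 in WT other cells (8 of 12 tested genes positive, median 0.23), and its part in these values was not tested. Klrb1c, the gene of NK1.1, measured 52.9, 35.7 and 40.2 CPM in het and 17.1, 21.3 and 12.8 in WT, with no overlap (log2 1.22, SE 0.32, adjusted p 0.274 in edgeR). The cytokine receptor gene Il1r1 measured 143, 155 and 96.4 CPM in het and 72.5, 81.9 and 73.7 in WT (log2 0.81, SE 0.18, adjusted p 0.259 in edgeR), and the cytokine Csf2 228, 118 and 155 against 83.0, 111 and 48.0 (log2 0.95, SE 0.26, adjusted p 0.281 in edgeR). Cells with a UMI of Ncr1, a receptor of NK cells, were 6.50 ± 2.48% of het and 3.62 ± 1.91% of WT other cells (SD, n = 3; exact permutation p 0.3). These genes except Il22, Lyz2, C1qa, Ms4a1, H2-Aa and Cd74 were chosen after their values were seen.

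Immunoglobulin RNA had lower values in het other cells. Of 11 tested plasma cell lineage genes 9 had a negative ratio at an unadjusted p under 0.05 (median -0.73), beside 4.58% of all genes tested, and none was called. Igkc measured 5529, 4070 and 6823 CPM in het and 8086, 5445 and 16050 in WT (log2 -0.76, SE 0.18, adjusted p 0.259 in edgeR; -0.42 without WT library 3). The plasma cell share of the same sums was lower in het too, and the part of free RNA in this difference was not tested. Among glycan genes Gcnt1, which branches core O-glycans, measured 37.0, 68.5 and 29.5 CPM in het and 18.4, 16.0 and 9.61 in WT (log2 1.61, SE 0.31, adjusted p 0.172 in edgeR). Gne, the first enzyme of sialic acid synthesis, measured 17.6, 13.4 and 18.8 CPM in het and 35.6, 40.4 and 44.8 in WT (log2 -1.29, SE 0.29, adjusted p 0.259 in edgeR). Cmah, which makes N-glycolylneuraminic acid, had a log2 ratio of -0.66 (SE 0.17, adjusted p 0.274 in edgeR). None of these 3 genes overlapped between groups.

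Ccl5 and the MHC class I genes H2-Q7 and H2-Q6 had higher values in every het sum than in any WT sum in T, plasma and other cells. None passed in the main edgeR fit of any class, and they were chosen after their values were seen. Of all genes tested 6.4%, 4.54% and 5.59% did so in these classes, and the share in all classes at once was not counted. The classes come from the same mice and captures. H2-Q7 (chromosome 17, 35439140 to 35443773) measured 832, 1000 and 900 CPM in het and 705, 718 and 661 in WT T cells (log2 0.39, adjusted p 0.416 in edgeR). In plasma cells it measured 121, 121 and 81.6 against 72.4, 58.6 and 76.4 (log2 0.63, adjusted p 0.651 in edgeR), and in other cells 499, 661 and 509 against 332, 369 and 301 (log2 0.73, adjusted p 0.172 in edgeR; DESeq2 adjusted p 0.0364). The ratios without WT library 3 were 0.32, 0.82 and 0.68. H2-Q6 had log2 ratios of 0.38, 0.48 and 0.52 in the same order.

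These H2-Q genes are near-identical copies side by side on chromosome 17, so their counts are uncertain apart. The neighbouring H2-Q2 had 26, 36 and 1 UMI in WT plasma cells of libraries 1 to 3 and 0, 0 and 4 in het, so the WT sums differed among themselves at this locus as they did for Gm10260. Ccl5 measured 252, 101 and 77.4 CPM in het and 35.0, 68.7 and 15.6 in WT plasma cells (log2 1.82, SE 0.45, adjusted p 0.582 in edgeR). In other cells it measured 951, 557 and 705 against 461, 319 and 106 (log2 1.27, SE 0.37, adjusted p 0.353 in edgeR; 0.80 without WT library 3). Ccl5 levels in plasma cells were far below those in T cells, and the part of free T cell RNA in them was not tested.

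**Figure D4:**
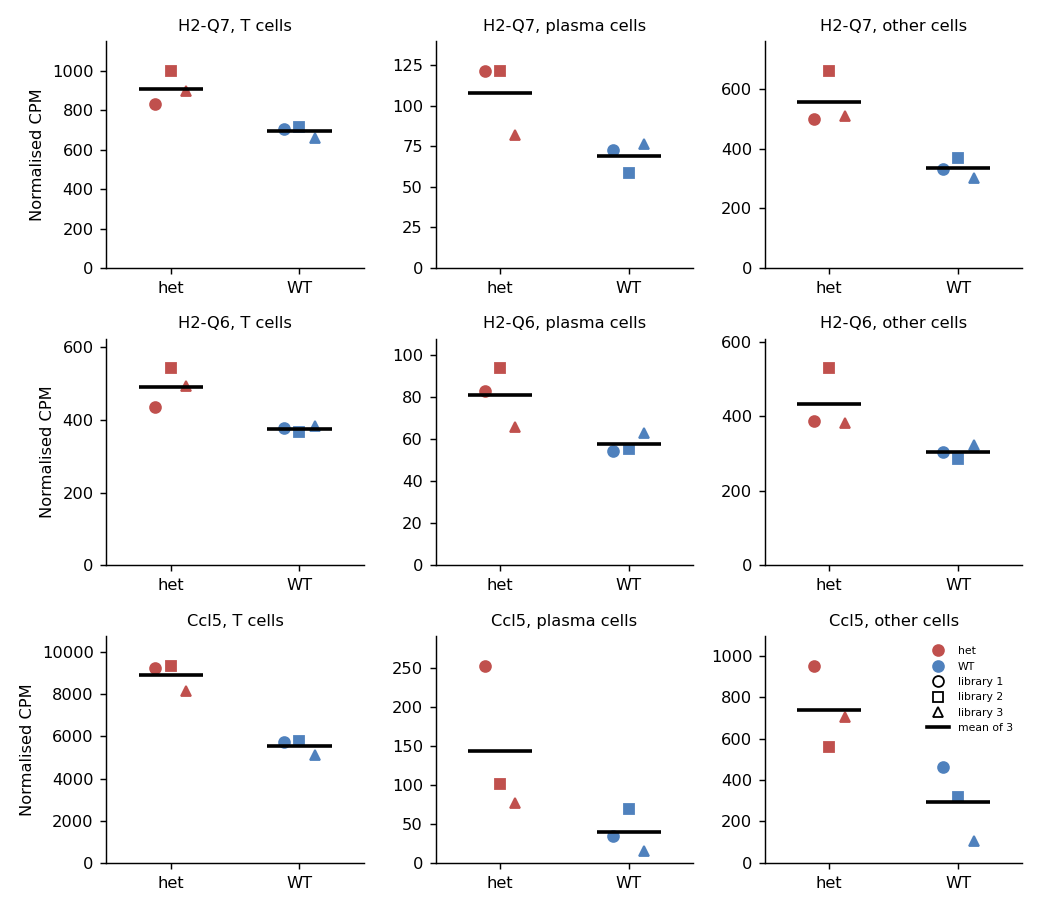
Normalised CPM (vertical axes, from 0) of H2-Q7, H2-Q6 and Ccl5 in T, plasma and other cell sums of het and WT; symbols are libraries and black lines the mean of 3. Each het point lies above each WT point in all 9 panels, by the least for H2-Q6 in plasma cells (66.0 against 63.1).

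The het effect was compared between T and plasma cells, which come from the same mice. The difference of the effects was called for 3 of 10546 genes (0.0284%), and 502 passed 0.05 before adjustment. Gzma had a larger log2 het effect in T than in plasma cells by 2.14 (SE 0.28, adjusted p 0.0113 in edgeR). In plasma cells Gzma RNA measured 98.5, 23.5 and 38.0 CPM in het and 104, 119 and 83.5 in WT, and in cells without a stromal UMI the difference was 2.70 (adjusted p 0.000388). That setting leaves out the WT library 3 T cell with 268 Gzma UMI. The difference for Gzma did not pass among cells with a hashtag share of at least 80% (1.54, adjusted p 0.793). The variable segments Igkv6-13 and Ighv1-19 had smaller het effects in T than in plasma cells, by log2 -3.70 (SE 0.39, adjusted p 0.00135 in edgeR) and -4.23 (SE 0.64, adjusted p 0.0335 in edgeR). The difference for Ighv1-19 did not pass without library 1 (-2.71, adjusted p 0.187), in cells without a stromal UMI (-2.66, adjusted p 0.745) or with the 80% hashtag share (-4.94, adjusted p 0.793). In this joint fit Gzma measured 34.0 to 171 CPM in plasma and 1204 to 3896 in T cell sums. Igkv6-13 measured 31.3 to 364 CPM in T and 58.3 to 19800 in plasma cell sums, and Ighv1-19 4.41 to 594 and 377 to 3112. The part of free RNA or of doublets in these differences was not tested.

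Genes near St8sia6 were counted apart. Within 20 Mb on chromosome 2, 99 genes were tested in T cells, 175 in plasma cells and 142 in other cells, and none was called. Gata3 (chromosome 2, 9857078 to 9887953) is among those tested in T cells. Of the genes near St8sia6 7.07%, 3.43% and 5.63% had an unadjusted p under 0.05, against 8.70%, 6.12% and 7.72% of all genes tested. In Cd4 T cells it was 4 of 33 (12.1%, against 5.96% of all) and in Cd8a T cells 1 of 22 (4.55%, against 5.15%), again with none called.

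**Figure D5:**
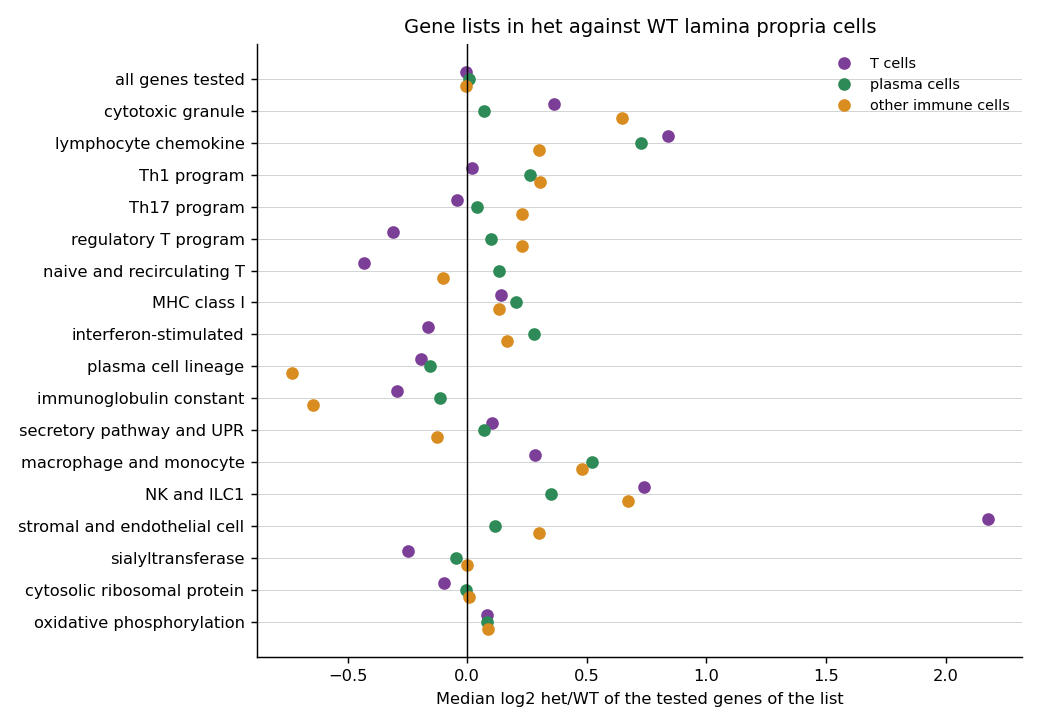
Median log2 ratio of het to WT (horizontal axis) over the tested genes of 18 sets, the first being all genes tested, in T, plasma and other cells. Cytotoxic and chemokine lists lie right of 0 in all 3 classes, the regulatory and naive lists left of 0 in T cells, the plasma cell lineage left of 0 in all 3 and the stromal list far right in T cells at 2.18.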

How the data were processed

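The authors deposited raw UMI counts per gene and cell, not normalized, and raw hashtag counts per cell. Entries with the unit other in the deposited files are names of genes, hashtags and barcodes. Per the submitters' processing notes Cell Ranger and Seurat were used with mm10; versions are not stated. The study's cell filter would remove 253 of the 21600 lamina propria cells, all by mitochondrial share.

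Each barcode ending took the genotype of its highest median hashtag, and endings 1-3, 4-6 and 7-9 were read as libraries. These library numbers are not tied to the sample numbers in the labels. Members, gates and gene lists were chosen with earlier results of these data known. Sums of under 10 cells were left out. edgeR 4.0.16 (R 4.3.3, TMM, filterByExpr, quasi-likelihood F test) was fitted to KO, het and WT sums with the library as a block, with calls at a Benjamini-Hochberg adjusted p under 0.05 over all genes tested, and was tested on simulated data. Printed CPM of genes are TMM-scaled; list levels, and St8sia6, are scaled to the UMI total of the sum alone. Class and gate shares were also taken after thinning each cell to 1000 UMI. Exact permutation tests were two-sided and did not pair het and WT sums by library. DESeq2 1.42.0 was an alternative, beside other factors, filters, samples, cells and left-out libraries.

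Named genes were St8sia6, called genes moving alike in every library (12 at most each way, by adjusted p), called list members and a fixed set per class, of which 1 gene is not reported here. Other genes named were chosen after their values were seen, in T cells Ccl5, Ccl4, Gzmk, Klrd1, Gata3, Tnfrsf4, Ikzf2, Lef1, Il7r, Bach2, Satb1 and St6galnac3, elsewhere H2-Q7, H2-Q6, H2-Q2, Gm10260, Madcam1, Socs3, Gcnt1, Gne, Cmah, Igkc of other cells, Ccl5 and Gzma of plasma cells, the segments and those the text marks. Intervals and depth limits cover counting error only.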

Additional observations from a re-analysis of the deposited data

Results flagged for a closer look

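The het effect differed between T and plasma cells for 3 genes by a test of the difference itself. Gzma RNA was low in plasma cells and the segments were mostly low in T cells. The part of free RNA in the differences was not tested. For Gzma the het effect was larger in T cells by a log2 of 2.14 (edgeR adjusted p 0.0113), with 3 of 3 het T cell sums above all WT sums. For Igkv6-13 it was smaller in T cells, by a log2 of -3.70 (edgeR adjusted p 0.00135). This segment was higher in het than in WT plasma cells in 3 of 3 libraries, and its values overlapped between the groups in both classes. For Ighv1-19 the difference was -4.23 (edgeR adjusted p 0.0335), and its CPM in T cells was 594 in WT library 1 against 9.23 and 17.9 in WT libraries 2 and 3. Without library 1 the difference was -2.71 and did not pass (adjusted p 0.187 in edgeR), nor did it in cells without a stromal UMI (adjusted p 0.745).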

How the results depend on the processing

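Counts of called genes moved with the processing, and the cause was not tested. With no filter on low counts they were 144 in T cells, 51 in plasma cells, 166 in other cells, 19 in Cd4 T cells, 9 in Cd8a T cells and 68 for the difference between T and plasma cells. Leaving out 1 library or the WT sum of library 3 gave 1 to 8 in T cells, 0 to 5 in plasma cells, 1 to 13 in other cells, 0 to 22 in Cd4 T cells, 0 to 7 in Cd8a T cells and 6 to 17 for the difference. With het and WT sums only they were 1 in T cells, 2 in Cd4 T cells and 33 for the difference. The T cell gene was Ccl5 among 4317 genes tested. Of the 5 genes called with KO sums 4 could be tested there, and 0 passed. DESeq2 called 33 genes in plasma cells and 13 in other cells, and leaving out immunoglobulin genes gave 9 in plasma cells. Cells with a hashtag share of at least 80% gave 0 in T cells and 6 in plasma cells, cells with at least 2000 UMI gave 2 in T cells and 1 in Cd4 T cells, and classes by any Cd3e or any Mzb1 gave 0 in T cells. Cells without a stromal UMI, an alternative chosen after seeing the data like the one without WT library 3 and the class numbers without the block, gave 3 in T cells, 5 in other cells and 3 in Cd4 T cells. Het and WT sums of a library share a capture and are paired by it, and without the replicate block the T cell count was 0; without it the log2 ratio of T cell numbers was 1.23. Among cells with a hashtag share of at least 80% the log2 ratio of cell numbers was 0.80 for T, -0.37 for plasma, 0.46 for cells with both genes and 0.016, a change of sign, for other cells, and none of the 4 passed. The plasma ratio did not pass at 2000 UMI (-0.36) or thinned (-0.19), and leaving out a library gave -0.50 to -0.34, not passing without library 2 (-0.48). The het minus WT share of plasma cells led by Igha ranged from -1.22 to 0.55 percentage points with a library left out, turning sign without library 3. Signs also turned for genes that passed in no class in the main edgeR fits. Leaving out a library or the WT sum of library 3 gave log2 ranges across 0 in T cells for Il17a (-1.61 to 0.27) and Il22 (-1.65 to 0.023). The same held in Cd8a T cells for Gzma (-0.13 to 0.57) and Gzmb (-0.052 to 1.10). For Gzma in Cd4 T cells the range was -0.14 to 0.44, from fits of which most kept only 1 WT sum. In plasma cells the ranges were -0.066 to 0.33 for Hspa5, -0.27 to 0.066 for Igha and -0.23 to 0.074 for Tnfrsf17. In other cells they were -0.18 to 0.38 for Cd74, -0.48 to 0.12 for H2-Aa, -0.39 to 1.60 for Il22, -0.30 to 0.74 for Lyz2 and -0.24 to 0.69 for Ms4a1. With the 80% hashtag share Il17a was 1.29 in T and 2.22 in Cd4 T cells, Gzma -0.25 in Cd8a T cells and Cd74 -0.25 in other cells. Only 1 WT sum remained in that Cd4 T cell fit. By any Cd3e or Mzb1 Il17a was 0.34, Il10 0.036 and Xcl1 0.036 in T cells and Gzma 0.67 in plasma cells. Gzma was -0.10 in Cd8a T cells at 2000 UMI, and Igfbp4 -0.40 in T cells without a stromal UMI. The depth of the T cell sums, 134147 to 622441 UMI, limits calls of low genes there.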
